A study of Mus musculus with 4 samples.

Results

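The chemokine receptor genes of mouse eosinophils were taken by symbol, as listed genes whose symbol begins Ccr or Cxcr followed by a digit, Ccrl, Ackr, Xcr or Cx3cr. Of the 5807 genes in the deposited comparison of pleural cavity with bone marrow eosinophils, 9 are described here, out of 23 RefSeq genes with such symbols. They were Ccr3, Ccr1, Ccr1l1, Ccr7, Ccrl2, Cxcr1, Cxcr2, Cxcr6 and Cx3cr1. The other 14, Ackr1, Ackr2, Ackr3, Ackr4, Ccr2, Ccr4, Ccr6, Ccr8, Ccr9, Ccr10, Cxcr3, Cxcr4, Cxcr5 and Xcr1, were not listed and no value is given for them.

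Chemokine receptors are G protein-coupled receptors that turn a gradient of a secreted chemokine into directed movement, through Gi proteins, phosphoinositide 3-kinase gamma and the actin cytoskeleton. Eosinophils carry CCR3, the receptor for the eotaxins, and follow these ligands from the blood into tissue. Neutrophils rely on CXCR2, and monocytes, macrophages and lymphocytes on CCR2, CX3CR1, CXCR6 and CCR7.

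The study asked how eosinophils reach and act in malignant pleural effusion, the tumor-laden fluid around the lung. Wild-type mice aged 6 to 8 weeks received 150000 cells of LLC, a Lewis lung carcinoma line of the mouse, into the pleural cavity, and on day 2 eosinophils were sorted out of the marrow and out of fluid washed from the pleural cavity. RNA of about 40000 eosinophils went into each extraction, and 2 libraries a tissue were sequenced. The sources used here differ on whether the bone marrow donors were naïve or bore LLC tumors, the methods name both C57BL/6 and BALB/c wild-type mice, and nothing says whether the libraries of a tissue came from separate or pooled animals. Bone marrow cells were enriched on F4/80 and gated as living CD45+SiglecF+ cells of high side scatter. Pleural cells were enriched on CD45 and gated as CD11b+F4/80+SiglecF+ cells of high side scatter, with CD11c+ and Gr1-high cells left out. The authors checked the purity of both sorts and identified the cells by Wright-Giemsa stain. The genes of these gates, Adgre1 for F4/80, Siglecf and Itgam for CD11b, are therefore no finding between the tissues. The paper lists Gr1 as Ly-6G and Ly-6C, so the same holds for Ly6g and Ly6c2.

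The table gives 1 value a tissue for each gene, the authors' mean of the estimated reads over libraries. Each gene it holds had an authors' q-value under 0.05. A member was therefore listed because it differed between the tissues, and each value below describes these libraries with no replicate check and no test. For these genes the paper itself states limits of P under 0.05 by DESeq2 and a change over 2-fold. It counts fewer upregulated genes than the 2468 on the higher side by the ratios below, where 1943 of 5807 lay within 2-fold. Summed over the listed genes, mean reads came to 15947438 in the pleural cavity and 11762543 in the bone marrow, which covers the listed genes and not whole libraries. Log2 ratios of pleural cavity over bone marrow were computed after scaling each tissue to its listed total, with 1 read added. Intervals are 95% exact binomial intervals of the ratio from the rounded mean reads and cover counting error only. A lower value can reflect fewer cells that carry an RNA or less RNA in each cell, and these cannot be told apart in sorted bulk samples.

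Of the 9 receptors, 4 were over 2-fold higher in pleural cavity eosinophils, against 16.0% of all 5807 listed genes. These were Ccr3, Ccrl2, Ccr7 and Ccr1l1. Another 4 were over 2-fold lower, Cxcr2, Cxcr1, Cx3cr1 and Cxcr6, against 50.5% of all listed genes. Ccr1 was higher by less than 2-fold, and passed 2-fold without scaling. The median log2 ratio was 0.56 over the receptors and -1.02 over all listed genes. Other scalings moved every ratio alike, by 0.44 without scaling and by -0.44 when scaled to the median of 1524 well-read genes (1000 mean reads or more in each tissue), and over all listed genes the shares past 2-fold were then 30.4% higher and 43.2% lower, or 9.01% and 57.3%. Among the 4729 listed genes with over 3 mean reads in both tissues, which leaves out Cxcr1, the median was 0.29. All 5 receptors with a Ccr or Ccrl symbol were on the higher side, and the 3 Cxcr genes and Cx3cr1 were on the lower side, under each scaling tried.

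**Figure D1:**
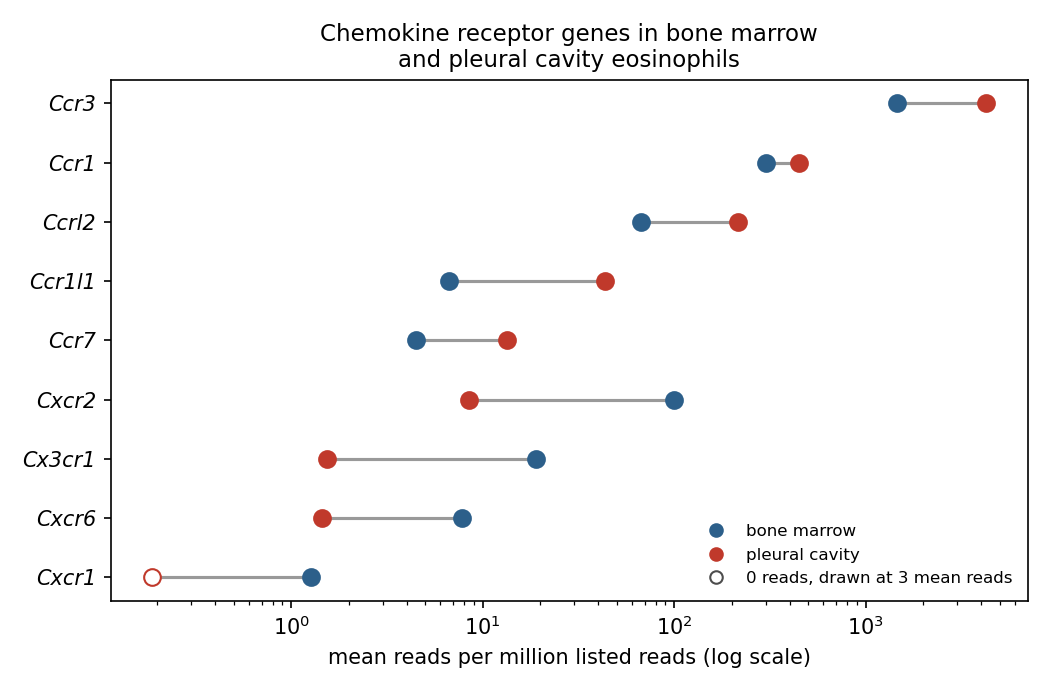
Mean reads, scaled to 1000000 listed reads a tissue, of the 9 chemokine receptor genes, on a log axis, in bone marrow (blue) and pleural cavity (red) eosinophils, with 1 pooled mean a point. The 5 Ccr and Ccrl genes lie further right in the pleural cavity, Ccr1 by less than 2-fold, and the other 4 lie further left, with Cxcr1 at 0 reads in the pleural cavity and drawn as an open point at 3 mean reads.

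Ccr3, the eotaxin receptor, had 67556.5 mean reads in the pleural cavity and 17177.5 in the bone marrow. It had the most reads of the 9 receptors in both tissues. Among the 5807 listed genes it held rank 21 by reads in the pleural cavity and rank 83 in the bone marrow. After scaling this was 4236 reads per 1000000 listed reads in the pleural cavity and 1460 in the bone marrow. The log2 ratio was 1.54 (1.51 to 1.56), or 2.90-fold higher in pleural cavity eosinophils. By log2 ratio it ranked 471 of 5807, so it stood out by its reads in both tissues more than by their difference. Ratios within a tissue, which no scaling moves, depended on the gene Ccr3 was set against. Ccr3 had 3.16 reads for each Siglecf read in the pleural cavity and 2.42 in the bone marrow. For each read of Gata1, the transcription factor needed for the eosinophil lineage, there were 9.33 Ccr3 reads in the pleural cavity and 6.93 in the bone marrow. Relative to these genes, Ccr3 was 1.31-fold and 1.35-fold higher in the pleural cavity. Against Itgam it was 2.27-fold higher, with 2.19 reads an Itgam read in the pleural cavity and 0.963 in the bone marrow, while against Adgre1 it was 1.65-fold lower, with 0.914 and 1.51. All but Gata1 were genes of the gates.

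Ccl24, the eotaxin gene among the listed ligands, had 131 mean reads in the pleural cavity and 5 in the bone marrow. Its log2 ratio was 4.02. The other mouse eotaxin gene, Ccl11, was not listed. The sorted cells thus held few Ccl24 reads in either tissue, with more in the pleural cavity.

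Ccr1, a receptor for inflammatory CC chemokines, had 7146 mean reads in the pleural cavity and 3566 in the bone marrow. Its log2 ratio was 0.56 (0.51 to 0.62), and across the scalings tried it ran from 0.12 to 1.003. Pleural cavity cells had more Ccr1 reads under each of those scalings, but the size of the difference depended on the choice. Counted against Siglecf, there were 0.334 Ccr1 reads a Siglecf read in the pleural cavity and 0.502 in the bone marrow. Against this gene of the gates Ccr1 was thus lower in the pleural cavity. Itgam, also a gene of the gates, had a log2 ratio of 0.35, smaller than that of Ccr1. The direction therefore depended on the gene Ccr1 was set against.

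Ccr1l1, a close relative of Ccr1 that lies beside it, had 690.5 mean reads in the pleural cavity and 78.5 in the bone marrow. The log2 ratio of 2.68 (2.37 to 3.06) was the highest of the 9 receptors. In the bone marrow there were 45.4 Ccr1 reads for each Ccr1l1 read, and in the pleural cavity 10.3, so the neighbours differed unequally between the tissues.

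Ligands of Ccr1 were among the listed genes with many reads. Ccl6, which binds Ccr1, had 545792 mean reads in the pleural cavity and 94408 in the bone marrow, a log2 ratio of 2.09. Ccl9, another Ccr1 ligand, had 51624 and 2689, a log2 ratio of 3.82, with fractional reads, which arise when reads are divided between similar genes and leave a value uncertain. Ccl3, which binds Ccr1 too, had 3388 in the pleural cavity and 549 in the bone marrow, a log2 ratio of 2.18. Under each scaling tried, receptor and ligand RNA were thus both higher in the sorted pleural cavity cells for these pairs. For Ccr1 this was by less than 2-fold in the main scaling, and it did not hold against Siglecf. Of 46 RefSeq chemokine ligand genes, 9 were listed, 7 over 2-fold higher and 2 over 2-fold lower, against 16.0% and 50.5% of all listed genes, with a median log2 ratio of 2.195 against -1.02 over all listed genes. Among them Cxcl13, the ligand of the unlisted Cxcr5, had 438 mean reads in the pleural cavity and 0.5 in the bone marrow.

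Ccrl2, a receptor that binds chemerin and does not signal for migration, had 3452.5 mean reads in the pleural cavity and 787 in the bone marrow. The log2 ratio was 1.69 (1.58 to 1.81). Ccr7, which guides cells to lymph nodes, had 214.5 mean reads in the pleural cavity and 53 in the bone marrow, a log2 ratio of 1.56 (1.13 to 2.04). Of the 2 listed markers of B cells, which carry Ccr7 too, Ms4a1 was higher with 366 and 107 and Vpreb1 lower with 6 and 40, and the part of B cells in Ccr7 was not tested. Ccrl2 and Ccr7 were thus higher in the pleural cavity under each scaling tried.

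Cxcr2, the receptor for neutrophil-attracting CXC chemokines, had 135.2 mean reads in the pleural cavity and 1179 in the bone marrow. After scaling this was 8.48 reads per 1000000 listed reads in the pleural cavity and 100.2 in the bone marrow. The log2 ratio was -3.55 (-3.83 to -3.31), or 11.7-fold lower in pleural cavity eosinophils. The reads of Cxcr2 were fractional, so its values are uncertain. Within a tissue there were 14.6 Ccr3 reads for each Cxcr2 read in the bone marrow and 499.8 in the pleural cavity, a 34.3-fold shift in the balance of these receptors that does not depend on scaling.

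Cxcr1, the neighbour and relative of Cxcr2, had 0 mean reads in the pleural cavity and 15 in the bone marrow. With 3 mean reads put in place of 0 it was 6.78-fold lower in the pleural cavity, and the interval of its log2 ratio had no lower end and an upper end of -2.28. Cx3cr1, the fractalkine receptor of monocytes and macrophages, had 24.5 mean reads in the pleural cavity and 222.5 in the bone marrow, a log2 ratio of -3.57 (-4.32 to -3.04). Cxcr6, a receptor of T and NK cells, had 23 in the pleural cavity and 91.5 in the bone marrow, a log2 ratio of -2.39 (-3.17 to -1.77). All 4 genes on the lower side were sparse in the pleural cavity, and Cxcr2 alone of them passed 1000 mean reads in the bone marrow.

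Of 18 neutrophil and granulocyte precursor markers, 17 were listed, 16 were over 2-fold lower against 50.5% of all listed genes, and their summed mean reads were 71588 in the pleural cavity and 1423088 in the bone marrow. The most abundant in the bone marrow was Ngp, with 546.5 mean reads in the pleural cavity and 263228 in the bone marrow. In the pleural cavity Mmp9, with 34715 and 14050.5, and Retnlg, with 33927 and 147022, held most reads of the list, and Mmp9 was the 1 on the higher side. No listed marker was at 0. Csf3r, the receptor for the neutrophil growth factor G-CSF, chosen after its values were seen, had 257.3 and 3626, also with fractional reads. Counted against Csf3r, Cxcr2 had 0.525 reads a Csf3r read in the pleural cavity and 0.325 in the bone marrow, so it was not lower relative to that gene. Against S100a8, another neutrophil gene, Cxcr2 was 57.7-fold higher in the pleural cavity, with 0.297 reads an S100a8 read there and 0.00515 in the bone marrow, so the neutrophil genes were not lower to the same extent. Gr1-high cells, which include neutrophils, were gated out of the pleural cells alone, while the marrow cells were enriched on F4/80 and gated on SiglecF and side scatter. The part of these cells and of the gates in the lower Cxcr2 and Cxcr1 was not tested.

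Of 15 monocyte and macrophage markers, 8 were listed, 3 over 2-fold higher and 3 over 2-fold lower, against 16.0% and 50.5% of all listed genes, with 85471 summed mean reads in the pleural cavity and 122265 in the bone marrow. Lyz2 was the most abundant, with 50392.5 and 87527 and with fractional reads, and no listed marker was at 0. Csf1r, the macrophage growth factor receptor, was higher in the pleural cavity, with 20627.5 mean reads against 3973.5, and Ly6c2 of inflammatory monocytes was lower, with 608 against 22102, again with fractional reads. Cx3cr1 and Ly6c2 were both lower, with log2 ratios of -3.57 and -5.62, so Cx3cr1 was lower to a smaller extent. Against Csf1r there were 0.0560 Cx3cr1 reads a Csf1r read in the bone marrow and 0.00119 in the pleural cavity, or 47.1-fold fewer. The 8 listed markers were split, with 4 on the higher side and 4 on the lower. Of 9 T and NK cell markers, 3 were listed and all 3 were over 2-fold lower, as were 50.5% of all listed genes, with 159 summed mean reads in the pleural cavity and 10617 in the bone marrow. Nkg7 was the most abundant of them, with 112 and 10432, a log2 ratio of -6.97, and none of the 3 was at 0. Cd3d, with 32 and 123, and Ncr1, with 15 and 61.5, had log2 ratios of -2.35 and -2.40, beside -2.39 for Cxcr6. The part of these markers' cells in the ratios of Cx3cr1 and Cxcr6 was not tested. Nor was their part in the receptors and ligands on the higher side, Ccr1 and its ligands among them.

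The eosinophil markers themselves were divided. Of 12, 11 were listed, Il5ra being unlisted. Over 2-fold higher were 3, Adgre1, Siglecf and Gata1, and 7 were over 2-fold lower, against 16.0% and 50.5% of all listed genes. The summed mean reads were 166656 in the pleural cavity and 1138327 in the bone marrow. Siglecf, the sialic acid receptor used in both gates, had 21371 in the pleural cavity and 7105.5 in the bone marrow. Its log2 ratio of 1.15 was under 2-fold in 3 other scalings. Gata1, with a smaller log2 ratio of 1.11, was under 2-fold in the same 3. Epx, the eosinophil peroxidase, had 341.5 in the pleural cavity and 139062 in the bone marrow. The most abundant marker in the bone marrow was Prg2, the major basic protein of the granules, with 1482 and 555404, and in the pleural cavity it was Adgre1, with 73916.5 and 11406. None of the listed defining markers was at 0 in either tissue. Surface markers named in the gates were selected on in the sort, CD11b in the pleural cells alone. The granule genes were sparse in the pleural cavity. Ccr3 did not go with the granule genes, with 197.8 reads for each Epx read in the pleural cavity and 0.124 in the bone marrow.

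Taking the 9 receptors as a whole, they held 4969 reads per 1000000 listed reads in the pleural cavity and 1969.8 in the bone marrow. Ccr3 alone made up 85.3% (85.0 to 85.5) of these receptor reads in the pleural cavity and 74.1% (73.6 to 74.7) in the bone marrow. Ccr1 held 9.02% (8.82 to 9.22) in the pleural cavity and 15.4% (14.9 to 15.9) in the bone marrow. For Cxcr2 the share was 0.171% (0.143 to 0.202) in the pleural cavity and 5.09% (4.81 to 5.38) in the bone marrow. Among these 9, the receptor reads of the sorted pleural cavity cells were therefore more concentrated on Ccr3. The 14 unlisted receptors are in neither total. The shares, with Clopper-Pearson intervals, do not depend on scaling, and the part of other cells in them was not tested.

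Levels of different receptors were compared as reads per 1000000 listed reads and per kilobase of the longest transcript. On this scale the pleural cavity order began with Ccr3 at 1295, Ccr1 at 158, Ccrl2 at 88.0 and Ccr1l1 at 37.1 reads per kilobase. Ccr7 at 6.80 and Cxcr2 at 2.78 reads per kilobase followed, then Cxcr6 at 0.756 and Cx3cr1 at 0.342. Cxcr6 and Cx3cr1 had overlapping 95% Poisson intervals, and Cxcr1 came last at 0. In the bone marrow the order began with Ccr3 at 446, Ccr1 at 107, Cxcr2 at 32.9 and Ccrl2 at 27.2 reads per kilobase. Ccr1l1, Cx3cr1 and Cxcr6 followed with overlapping intervals at 5.72, 4.21 and 4.08 reads per kilobase, and Ccr7 and Cxcr1 came last at 2.28 and 0.879. Cxcr2 thus held the third place among the 9 receptors in the bone marrow and the sixth in the pleural cavity. Per kilobase of coding sequence the first 4 places of each tissue stayed as given, while Cxcr6 and Cx3cr1 changed places in the pleural cavity and Ccr1l1 moved to the seventh place in the bone marrow.

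The receptor genes also share position, which the rule did not use. Of the 9, 6 lie on chromosome 9, where RefSeq places 14 of the 23 receptor genes in GRCm38. Within 69.6 kilobases stand Ccr1 (chr9:123962126-123968692), Ccr1l1 (chr9:123976430-123986715) and Ccr3 (chr9:124017825-124031692), with the unlisted Ccr2 (chr9:124101918-124109140) beyond them. All 3 genes of this stretch had more reads in the pleural cavity under each scaling tried, with log2 ratios from 0.56 to 2.68. The size did not follow the order along the chromosome, since Ccr1 and Ccr1l1 are separated by 7738 bases and had the smallest and the largest of the 3 ratios. Cxcr6 (chr9:123806477-123811754) lies 150372 bases from Ccr1 and was lower in the pleural cavity.

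**Figure D2:**
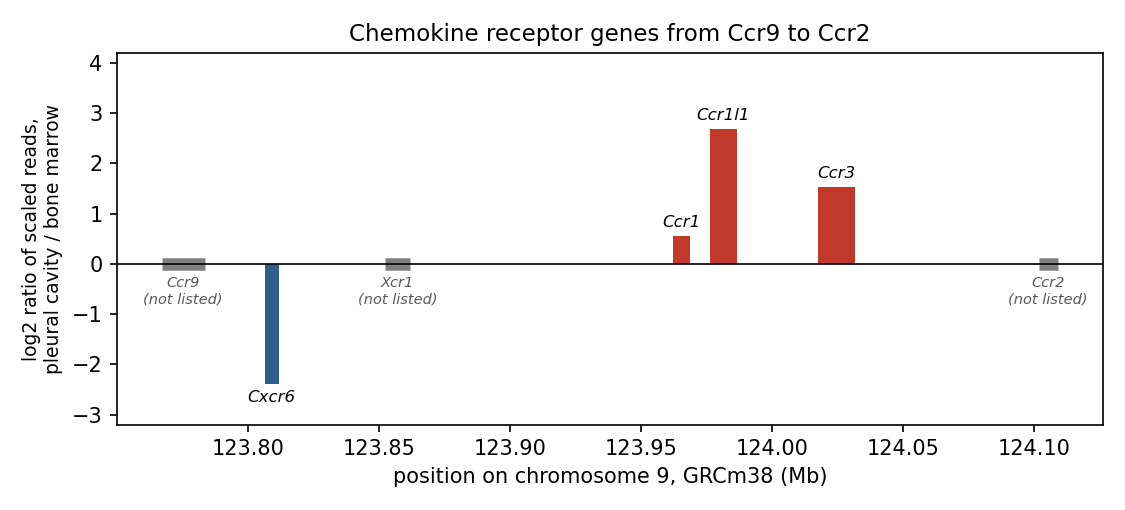
Log2 ratio of scaled mean reads, pleural cavity over bone marrow, of the chemokine receptor genes from Ccr9 to Ccr2 on chromosome 9, drawn at their GRCm38 positions, with bar width equal to gene length. Ccr1, Ccr1l1 and Ccr3 have bars above 0 under each scaling tried and Cxcr6 has a bar below 0, while grey marks show genes that were not listed.

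Cxcr2 (chr1:74153994-74161246) and Cxcr1 (chr1:74191785-74194708) are neighbours on chromosome 1, 30539 bases apart, and both were lower in the pleural cavity. Except for Tns1, the other listed genes within 250000 bases of Cxcr2 were on the higher side by log2 ratio. On that side were 2468 of all 5807 listed genes. Apart from Rufy4 and Slc11a1 these neighbours were under 2-fold. The smallest ratio was 0.32 for Aamp, less than the 0.44 by which scaling to the median of well-read genes lowers every ratio. Arpc2, a subunit of the actin-nucleating Arp2/3 complex 75244 bases from Cxcr2, had 47476.5 mean reads in the pleural cavity and 22236 in the bone marrow. Slc11a1, a metal transporter of phagosomes, had 2339 in the pleural cavity and 632 in the bone marrow, a log2 ratio of 1.45. Rufy4, 5764 bases from Cxcr2 and overlapping Tns1, had 214.5 in the pleural cavity and 53.5 in the bone marrow, a log2 ratio of 1.54. Tns1, a focal adhesion protein, was lower, with 18.5 and 87.5. Ccrl2 (chr9:111054834-111057518) lies 12068 bases from Ltf, the lactoferrin gene of neutrophil granules, which had 178.5 mean reads in the pleural cavity and 81285.5 in the bone marrow, so these neighbours went opposite ways. Near Ccr7 (chr11:99144199-99155077), Rara, a retinoic acid receptor with fractional reads, was higher with a log2 ratio of 1.88, and Top2a, a topoisomerase of dividing cells, was lower with -6.40, as were the nearest listed gene Igfbp4 with -6.82 and Cdc6, needed for DNA replication, with -5.00. Around Cx3cr1 (chr9:120048683-120068296), the nearest listed gene was Slc25a38, a mitochondrial carrier needed for haem synthesis, with 729 mean reads in the pleural cavity and 1347 in the bone marrow, which were fractional.

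Promoter sequence of RefSeq (GRCm38.p6) was given for 8 of the 9 receptor genes, all but Ccr7. The 250 bases before the start of transcription are shown for the 3 neighbours Ccr1, Ccr1l1 and Ccr3, which were higher together, and for Cxcr2, which was lower. They lie at chr9:123968693-123968942 on the minus strand, chr9:123986716-123986965 on the minus strand, chr9:124021721-124021970 on the plus strand and chr1:74153744-74153993 on the plus strand, and each is printed 5′ to 3′ along its gene. The Ccr3 start used here, at base 124021971, lies within the RefSeq span of the gene. Capitals mark the letters AGATAA, as bound by GATA factors, and GAGGAA, as bound by the myeloid factor PU.1, searched on both strands (TTATCT and TTCCTC).
Ccr3: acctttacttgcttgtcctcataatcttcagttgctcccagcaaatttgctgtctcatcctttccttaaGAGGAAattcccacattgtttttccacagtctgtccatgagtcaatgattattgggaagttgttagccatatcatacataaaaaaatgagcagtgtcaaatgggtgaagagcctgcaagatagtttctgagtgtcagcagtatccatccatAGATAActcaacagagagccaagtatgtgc
Ccr1: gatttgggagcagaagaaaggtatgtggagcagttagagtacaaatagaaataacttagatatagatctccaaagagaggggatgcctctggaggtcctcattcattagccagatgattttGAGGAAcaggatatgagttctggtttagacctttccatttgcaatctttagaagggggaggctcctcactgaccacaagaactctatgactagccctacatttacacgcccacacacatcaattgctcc
Ccr1l1: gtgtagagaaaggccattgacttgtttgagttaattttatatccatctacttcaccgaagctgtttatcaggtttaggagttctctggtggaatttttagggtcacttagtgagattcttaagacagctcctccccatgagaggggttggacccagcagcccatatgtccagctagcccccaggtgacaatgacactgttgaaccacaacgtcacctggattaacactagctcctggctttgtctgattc
Cxcr2: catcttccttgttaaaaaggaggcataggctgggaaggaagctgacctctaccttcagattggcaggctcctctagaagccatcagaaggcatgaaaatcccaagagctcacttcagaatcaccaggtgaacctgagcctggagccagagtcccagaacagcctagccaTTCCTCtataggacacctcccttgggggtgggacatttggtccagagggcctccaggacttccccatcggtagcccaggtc
In Ccr3, AGATAA begins 30 bases and GAGGAA 181 bases before the start. Ccr1 holds GAGGAA and Cxcr2 holds TTCCTC, while neither string was in the window of Ccr1l1. The 8 genes had 10 windows, 3 of them from starts of Ccrl2. AGATAA or its reverse complement stood in 3 of the 10, that of Ccr3 and 2 of Ccrl2 that share the site, against 9.99% of 32817 RefSeq windows of this length. GAGGAA or its reverse complement stood in 3 of the 10, those of Ccr3, Ccr1 and Cxcr2, against 23.3% of those windows, and the 2 strings overlapped nowhere in the 8 genes. Gata1 had 7241 mean reads in the pleural cavity and 2477 in the bone marrow, and Spi1, which encodes PU.1 and was chosen after its values were seen, had 26912.5 and 13472. These matches are a description of letters and not of binding.

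Other receptors for chemoattractants, which are G protein-coupled receptors too, were on both sides. Of 27 such genes 12 were listed, 5 over 2-fold higher and 5 over 2-fold lower, against 16.0% and 50.5% of all listed genes, with a median log2 ratio of 0.94 against -1.02 over all listed genes. Ptafr, the receptor for platelet-activating factor, had 22874 mean reads in the pleural cavity and 2871 in the bone marrow, with fractional reads. C3ar1, the receptor for complement fragment C3a, had 19238 and 935, a log2 ratio of 3.92 that exceeded that of each of the 9 chemokine receptors. P2ry14, which senses UDP-glucose, had 7170 and 2076.5, a log2 ratio of 1.35 that dropped under 2-fold when scaled to the median of well-read genes. On the lower side Gpr35 had 226 and 2461 with fractional reads, and S1pr3, a sphingosine 1-phosphate receptor, had 0.5 and 56.

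Of 18 Gi protein and effector genes 15 were listed, 2 over 2-fold higher and 1 over 2-fold lower, against 16.0% and 50.5% of all listed genes, with a median log2 ratio of 0.49. Without scaling 6 were over 2-fold higher, against 30.4%, and when scaled to the median of well-read genes 4 were over 2-fold lower, against 57.3%. The higher ones in the main scaling were Pik3r6 and Pik3r5, the adaptor subunits that link phosphoinositide 3-kinase gamma to G proteins. Pik3r6 had 8060 mean reads in the pleural cavity and 1447 in the bone marrow, a log2 ratio of 2.04. Pik3r5 had 7997.5 and 1546, a log2 ratio of 1.93, with fractional reads. The catalytic subunit Pik3cg, chosen after its values were seen, had 1591 and 2305, a log2 ratio of -0.97 that passed 2-fold lower in 3 other scalings. Adaptor and catalytic subunit thus had ratios of opposite sign. Gnb1, a G protein beta subunit, had 12059.5 and 5568, and Gnai3, an inhibitory alpha subunit, had 8670.5 and 3557, both less than 2-fold higher when scaled and over 2-fold higher without scaling. Plcb4, a phospholipase, was lower with 10 and 80.

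Of 14 genes that desensitise such receptors 9 were listed, 4 over 2-fold higher and 2 over 2-fold lower, against 16.0% and 50.5% of all listed genes, with a median log2 ratio of 0.63. When scaled to the median of well-read genes 1 was over 2-fold higher, against 9.01% of all listed genes. Grk5, a kinase that phosphorylates active receptors, had 747.5 mean reads in the pleural cavity and 90 in the bone marrow, a log2 ratio of 2.60. Rgs2, which shortens G protein signals, had the most reads of this list, 26553.5 and 13342.5, a log2 ratio of 0.55. Rgs1, of the same family, was lower with 656.5 and 3459, a log2 ratio of -2.83. Grk3, another receptor kinase, was lower as well, with 134.5 and 400. The list was thus divided within the Grk and within the Rgs genes.

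Of 26 genes of the Rac GTPase and actin steps of migration 14 were listed, 2 over 2-fold higher and 1 over 2-fold lower, against 16.0% and 50.5% of all listed genes, with a median log2 ratio of 0.66. Dock2, which activates Rac in leukocytes, had 18245 mean reads in the pleural cavity and 6065 in the bone marrow, a log2 ratio of 1.15. Arpc1b, another Arp2/3 subunit, had the most reads, 78955.5 and 31073, a log2 ratio of 0.91. Vav1, a Rac activator, was lower with 1730 and 3664, a log2 ratio of -1.52, with fractional reads. The calls depended on scaling, with 9 genes over 2-fold higher without scaling against 30.4% of all listed genes, Arpc1b among them, and 0 when scaled to the median of well-read genes against 9.01%, where Dock2 was at 0.71.

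Among 6 receptors for eosinophil growth and survival factors 4 were listed, 1 over 2-fold higher and 1 over 2-fold lower, against 16.0% and 50.5% of all listed genes, with a median log2 ratio of 0.62. Il1rl1, the receptor for interleukin-33, had 13613 mean reads in the pleural cavity and 1670 in the bone marrow, a log2 ratio of 2.59. Csf2rb, the shared beta chain for interleukin-5 and GM-CSF, had 13367 and 8189.9, a log2 ratio of 0.27 that turned to -0.18 when scaled to the median of well-read genes. Il3ra, the interleukin-3 receptor alpha chain, was lower with 139 and 323.5, a log2 ratio of -1.65. Reads of Il1rl1 and Csf2rb were fractional. Il5ra and Csf2ra were not listed.

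Outside these lists, the 5 genes nearest to Ccr3 in log2 scaled mean reads of both tissues were Cd24a, Padi4, Calm2, Gapt and Zyx, at distances from 0.12 to 0.24. Cd24a, a glycosylated surface protein, had 64549.5 mean reads in the pleural cavity and 18361 in the bone marrow. Padi4, which converts arginine to citrulline, had 60744 and 16657, with fractional reads. Nearest to Cxcr2 were Olfr613, C1qtnf12, Pkmyt1, Abca13 and Gm52229, at distances from 0.12 to 0.20. Pkmyt1, a kinase that holds back entry into mitosis, had 122 and 1204, with fractional reads. With 2 values a gene such likeness is coarse.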

How the data were processed

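Eosinophils of 4 libraries were grouped by tissue from their labels. The authors trimmed reads of 100 bp with SOAPnuke, used HISAT2 2.1.0 for alignment (GRCm38) and Bowtie2 2.2.5 for assignment to genes, and estimated expected counts with RSEM 1.2.8. The deposited mean reads are these expected counts averaged over the libraries of a tissue, not scaled for depth, and the depth of each library is unknown. The deposited table also holds the authors' log2 fold changes, p-values and q-values from DESeq2. No fold change or p-value of theirs was used, and q-values served only to check that each listed gene lay under 0.05.

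Ratios were computed here with 1 read added. The calculation was tried on simulated data, which tests no difference between the tissues. Reads were called fractional when the mean was not a whole multiple of 0.5. Called means over 2-fold. Some genes that the rule or the lists name are not reported here and were left out of their counts, medians and shares, but not out of the totals over all listed genes. Chemokine ligands, 5 pathway lists and 10 marker lists were used. Genes named were the receptors described, a choice from their listed ligands and the 5 nearest in level. A choice from the listed genes within 250000 bases was named too. From each list came some, not all, of the 3 genes with the most reads and the 3 with the largest ratios. Some others were chosen after their values were seen. The members and lists were chosen with earlier results of these data known. Transcript lengths came from GENCODE M21 and matched 5656 genes, and positions came from RefSeq. Calculations used Python 3.11.15, numpy 2.4.6, pandas 2.3.3 and scipy 1.17.1.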

Additional observations from a re-analysis of the deposited data

How the results depend on the processing

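Each of the 9 receptors kept its direction under all 6 other scalings and added read numbers, 54 values in all. Scaling moved every gene alike, by 0.44 on the log2 scale without scaling, by -0.17 for totals without the 50 genes with the most reads, by -0.44 for the median of 1524 genes with at least 1000 reads in both tissues, and by -0.33 for totals without the eosinophil, neutrophil and basophil markers, the last chosen after seeing the data. In that order the log2 ratio of Ccr3 was 1.98, 1.37, 1.09 and 1.202, and the median of the receptors was 1.003, 0.39, 0.12 and 0.23. Cxcr2 had -3.11 without scaling, -4.00 by the median of well-read genes and -3.89 without the markers. Over all listed genes, the higher and lower shares past 2-fold were 30.4% and 43.2% without scaling, 12.6% and 53.8% without the 50 genes with the most reads, 9.01% and 57.3% by the median of well-read genes, and 10.2% and 56.2% without the markers. They were 29.3% and 57.1% at 1.5-fold and 5.22% and 36.6% at 4-fold. The receptors' median was 1.05 with more than 3 reads in both tissues and 1.05 with at least 50 reads in either, since each filter leaves out Cxcr1. At 4-fold 1 receptor was higher, Ccr1l1, and 4 were lower. Per coding length, 7 of 9 receptors kept their place in the pleural cavity and 6 in the bone marrow. The pathway lists, tried in this way after seeing the data, depended more on scaling. Without scaling, 6 Gi protein and effector genes, 9 migration genes and 2 growth factor receptors were over 2-fold higher. Without the 50 genes with the most reads, 2 desensitisation genes and 0 migration genes were higher and 2 Gi genes lower. By the median of well-read genes, 1 desensitisation gene and 0 migration genes were higher and 4 Gi genes lower, and without the markers 1 and 0 were higher and 3 Gi genes lower. At 1.5-fold, 6 Gi genes, 9 migration genes and 2 growth factor receptors were higher and 4 Gi genes lower. At 4-fold, 1 Gi gene, 1 desensitisation gene and 0 migration genes were higher, with 0 migration genes and 0 growth factor receptors lower. No paired analysis was possible because the mean columns carry no replicate number, and for the same reason no library could be left out in turn.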

Other observations

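Ccr7 and Rufy4 had nearly the same values in both tissues, 214.5 mean reads each in the pleural cavity, and 53 for Ccr7 and 53.5 for Rufy4 in the bone marrow. They lie on different chromosomes, and the pair was noticed after the values were seen. Of 7 dendritic cell markers 1 was listed, Siglech, with 0.5 mean reads in the pleural cavity and 34 in the bone marrow.

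Each of the remaining marker lists summed to fewer mean reads in the pleural cavity than Ccrl2 had. Of 8 basophil and mast cell markers 7 were listed, all over 2-fold lower against 50.5% of all listed genes, with 406 summed mean reads in the pleural cavity and 13065 in the bone marrow, and the most abundant in the bone marrow was Prss34 with 4.5 and 3810.5, and in the pleural cavity Kit with 232.5 and 1676. Of 8 B cell markers 2 were listed, with 372 and 147 summed mean reads, led by Ms4a1, which encodes CD20, with 366 and 107, while Vpreb1 was lower with 6 and 40. Of 7 erythroid markers 2 were listed, with 13.5 and 784.5 summed mean reads, led by Car2 with 12 and 621.5. Of 6 progenitor markers 5 were listed, Kit being in the basophil and mast cell list too, with 2498.5 and 5609 summed mean reads. Myb led them in the bone marrow with 84.5 and 2095.5, and Meis1, with 2065.5 and 706, led in the pleural cavity and was the 1 on the higher side. Of 7 mesothelial and LLC tumor cell markers 2 were listed, with 1926 and 603 summed mean reads, led by Krt18 with 1918 and 518, while Col1a1 was lower with 8 and 85. The part of these cells in the receptor values was not tested.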
